A study of Mus musculus with 22 samples.

Results

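The expression of 6 interferon-linked genes was followed in mouse liver: Parp12, Zc3hav1, Zc3hav1l, Parp9, Parp14 and Dtx3l. They were chosen by name as the PARP-family and zinc-finger antiviral protein (ZAP) genes tied to interferon, with Dtx3l as the partner of Parp9, and all 10 probe sets annotated to them alone were read, out of 18193 named genes and 45037 probe sets tested on the array. Parp12, Zc3hav1 and Zc3hav1l lie on chromosome 6 close to Trim24, the gene disrupted in the mutants: counted along the chromosome in RefSeq order, Zc3hav1l was measured gene 5, Zc3hav1 gene 6 and Parp12 gene 15 from Trim24. Parp9, Parp14 and Dtx3l lie on chromosome 16.

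Interferons bind receptors that activate STAT transcription factors, which switch on a large set of antiviral genes, and these genes are part of that set. Zc3hav1 encodes ZAP, which binds CpG-rich viral RNA through its zinc fingers and recruits RNA decay factors, and whose PARP domain is catalytically inactive. Zc3hav1l encodes a shorter relative of ZAP without the PARP domain. Parp12 encodes a mono-ADP-ribosyltransferase with zinc fingers of the same type, which restricts alphavirus replication. Parp9 is a macrodomain protein that binds the ubiquitin ligase Dtx3l, and in human cells the pair strengthens interferon responses. Parp14 is a macrodomain-bearing mono-ADP-ribosyltransferase known in mouse as a co-activator of STAT6.

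The study asked how loss of Trim24, a co-regulator that restrains the retinoic acid receptor gene product of Rara, bears on interferon and STAT signalling. Whole-liver RNA was hybridised to Affymetrix arrays from 22 mice in 5 groups: Trim24-/- Rara+/- (n = 4), Trim24-/- (n = 4) and wild type (WT, n = 4) at 5 weeks, and Trim24-/- (n = 5) and WT (n = 5) at 14 weeks. Trim24 was disrupted in all tissues, and Trim24-/- Rara+/- mice also lacked 1 Rara allele in all tissues. Mice came from intercrosses of double heterozygotes on a hybrid background of C57BL/6 (60%) and 129/Sv (40%), no group carried the Rara deletion with intact Trim24, and colonies were kept free of specific pathogens. The strain origin of the chromosome 6 segment carried by each mouse was not given, so alleles inherited with the disrupted Trim24 and the loss of Trim24 itself cannot be told apart for the chromosome 6 genes.

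All arrays were scaled to a trimmed mean of 100.001, and 49.9% to 54.4% of probe sets lay below a signal of 16 at 5 weeks, against 37.8% to 45.3% at 14 weeks. Xist had signals of 948 to 2169 in all 5-week mice and 13.4 to 44.5 in all 14-week mice, whereas Y-linked Eif2s3y had 0.350 to 6.59 at 5 weeks and 245 to 344 at 14 weeks, so that age, sex and array set cannot be told apart between the 2 ages. Of 3 Trim24 probe sets, the brightest, 1427258_at, gave 400 to 473 in Trim24-/- Rara+/-, 305 to 488 in Trim24-/- and 191 to 459 in WT livers at 5 weeks, and 185 to 336 in Trim24-/- and 143 to 205 in WT livers at 14 weeks. The second, 1427259_at, gave 46.5 to 70.1 in Trim24-/- Rara+/-, 47.6 to 69.8 in Trim24-/- and 44.9 to 63.6 in WT livers at 5 weeks, and 36.6 to 56.0 in Trim24-/- and 33.7 to 54.4 in WT livers at 14 weeks, and 1446295_at was below 16 on most arrays. Neither usable probe set had a lower range in the mutants, but the position of their probes relative to the disruption was not given, so they do not check the genotype. Rara was dim, with 8.57 to 31.6 in Trim24-/- Rara+/-, 1.23 to 19.0 in Trim24-/- and 2.74 to 27.0 in WT livers at 5 weeks. Hepatocyte genes averaged 12.5 to 13.2 on the log2 scale on every array. WT animal 90 and Trim24-/- animal 6 stood apart together: over 8333 brighter genes they correlated at 0.979 with each other, against at most 0.959 for animal 6 and 0.954 for animal 90 with another array of its own group. Calls at 5 weeks were therefore also made without both, an alternative chosen after the arrays were seen. Trim24-/- Rara+/- animal 82 had a median signal of 16.03, against 16.04 in animal 90, 16.08 in animal 6 and at most 15.2 on the other 5-week arrays. Its share of probe sets below 16 was 49.96%, against 49.95% and 49.90%. Animal 82 was not compared with the pair by correlation and was left out only on its own.

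The RefSeq promoter table (GRCm38.p6) held 4 of the 6 genes, and windows of 300 bases, from 250 before to 50 after each gene start, were searched on both strands. Neither the interferon-stimulated response element (GAAA, any 2 bases, GAAA), found in 3.44% of 32851 windows, nor the gamma-activated sequence TTCNNNGAA, found in 8.3%, occurred in the windows of Parp12, Zc3hav1, Zc3hav1l or Dtx3l. The shorter core GAAACT, a search chosen after the sequences were seen and matched in 15.8% of windows, occurred at base -250 in Parp12 and at bases -191 and -78 in Dtx3l, and not in Zc3hav1 or Zc3hav1l. The 250 bases before the start of Parp12 (chr6:39118350-39118599, minus strand) and Dtx3l (chr16:35939028-35939277, minus strand) are shown 5′ to 3′ because they hold these matches, which are in capitals.
Parp12: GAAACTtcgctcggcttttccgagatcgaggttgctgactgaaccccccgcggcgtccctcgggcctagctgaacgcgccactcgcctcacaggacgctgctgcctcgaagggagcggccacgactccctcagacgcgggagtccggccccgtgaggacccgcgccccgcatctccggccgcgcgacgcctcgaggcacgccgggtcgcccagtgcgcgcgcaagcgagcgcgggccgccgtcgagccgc
Dtx3l: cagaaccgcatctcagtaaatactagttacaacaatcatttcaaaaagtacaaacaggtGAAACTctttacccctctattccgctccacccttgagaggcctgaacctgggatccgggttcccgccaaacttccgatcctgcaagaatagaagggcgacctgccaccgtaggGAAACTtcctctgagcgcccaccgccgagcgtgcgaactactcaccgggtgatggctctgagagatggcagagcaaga

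Trim24-/- livers were first compared with WT livers at 5 weeks. Parp12 rose 2.2-fold, and the dim Zc3hav1l signal also rose, while Zc3hav1 itself, the gene for ZAP, differed by 0.16 ± 0.15 on the log2 scale (SE) and did not pass the test. Parp14, Parp9 and Dtx3l had positive differences of 1.03, 0.73 and 0.46 that did not pass it either. Thus 2 of the 6 genes were called higher and 0 lower at an adjusted p under 0.05 (limma with Benjamini-Hochberg adjustment over all 18193 genes), where 0.473% of all genes were called higher and 0.599% in either direction. All 6 differences were positive, with a median of 0.73 against -0.01 over all genes, and 5 of the 6 had an unadjusted p under 0.05 where 10.8% of all genes did.

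Parp12 signals were 714, 381, 592 and 453 in Trim24-/- livers, against 244, 244, 184 and 245 in WT livers. Every Trim24-/- liver lay above every WT liver. The means were 535 ± 148 and 229 ± 30.2 (SD, n = 4 each), a difference of 1.14 ± 0.19 in log2(signal + 16) (SE, 95% interval 0.72 to 1.55, limma adjusted p = 0.0210). The difference was 1.31 (adjusted p = 0.0288) without WT animal 90 and Trim24-/- animal 6. The call was lost without WT animal 44 (adjusted p = 0.0615), WT animal 45 (0.0844), Trim24-/- animal 1 (0.0588) or Trim24-/- animal 8 (0.0764), with differences of 0.99 to 1.17 (limma).

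Zc3hav1l had signals of 17.3, 16.7, 14.7 and 16.7 in Trim24-/- livers, against 6.58, 1.12, 1.89 and 5.26 in WT livers. The groups did not overlap, but all values lay at or below about the 16 units added before the logarithm, and no fold is given. The difference was 0.72 ± 0.13 in log2(signal + 16) (SE, adjusted p = 0.0299), and its size follows the added constant, from 0.25 with 64 units to 2.07 with 1 unit, where it did not pass the test (limma adjusted p = 0.0839). The call was also lost without WT animal 44 or 45, or without any 1 of the 4 Trim24-/- animals (limma adjusted p 0.0541 to 0.102), and without WT animal 90 and Trim24-/- animal 6 (0.0656).

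Zc3hav1 was read by 3 probe sets, of which the brightest, 1436183_at, gave 195, 217, 265 and 141 in Trim24-/- livers, against 169, 177, 164 and 205 in WT livers. The groups overlapped, with animals 8 and 37 of the Trim24-/- group at the 2 extremes. Probe set 1428378_at gave 33.7 to 75.5 in Trim24-/- and 28.0 to 53.9 in WT livers and also overlapped. The third, 1431909_at, stayed below 16 on all 22 arrays, with a highest signal of 12.3, and so gives no usable comparison.

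Parp9 signals on chromosome 16 were 1203, 781, 903 and 492 in Trim24-/- livers, against 525, 373, 458 and 578 in WT livers. Of the Trim24-/- animals, 1, 6 and 8 exceeded every WT animal and animal 37 lay within the WT range. The difference was 0.73 ± 0.23 in log2(signal + 16) (SE, limma adjusted p = 0.216). Parp14, by its brighter probe set 1451564_at, gave 378, 269, 343 and 149 in Trim24-/- livers, against 145, 108, 112 and 134 in WT livers. These groups did not overlap, as for 3 of the 6 genes in all and 3% of all genes in the upward direction, although animal 37 exceeded the highest WT animal by little. The Parp14 difference was 1.03 ± 0.23 (SE, 95% interval 0.54 to 1.52, limma adjusted p = 0.0719).

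Dtx3l, by 1435208_at, gave 610.1, 489, 615 and 358 in Trim24-/- livers, against 335, 396, 346 and 380.4 in WT livers, and again only animal 37 fell within the WT range. Its difference was 0.46 ± 0.15 (SE, limma adjusted p = 0.259). The second probe sets pointed the same way: 1439825_at of Dtx3l differed by 0.37 and the dim 1432548_at of Parp14, with signals of 7.47 to 31.1 in Trim24-/- and 4.90 to 11.9 in WT livers, by 0.45, neither called. Over all 10 probe sets, each tested among 45037, all differences were positive and 2 were called (Parp12 and Zc3hav1l), against 0.233% of all probe sets called.

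**Figure D1:**
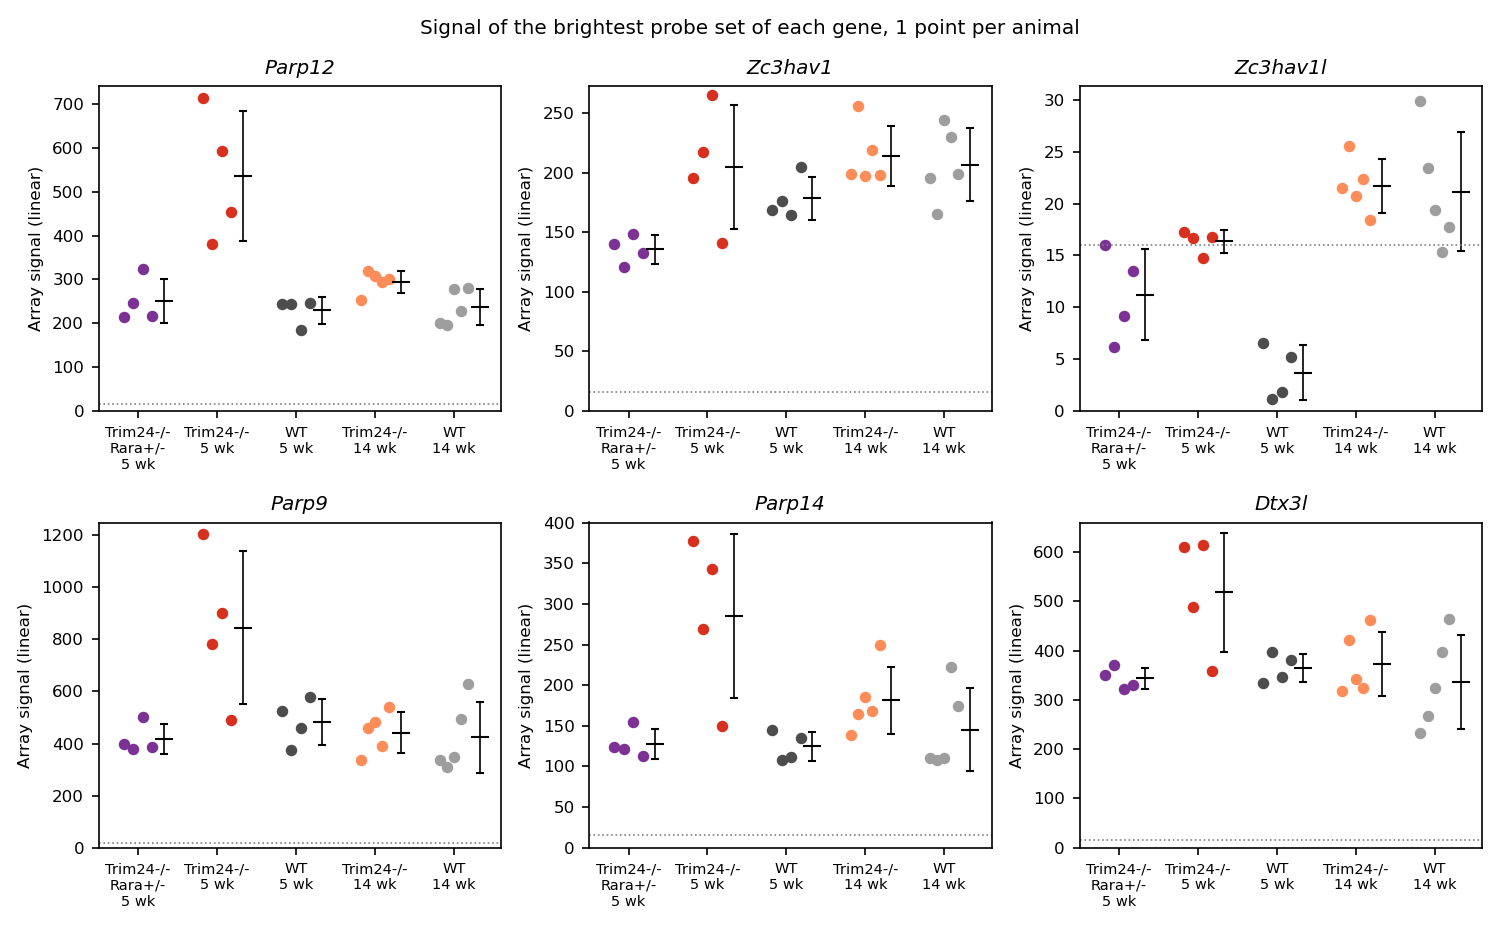
Linear array signal (vertical axes, from 0) of the brightest probe set of each of the 6 genes in the 5 groups, 1 point per animal, with a bar for the mean and its SD at the right of each group and a dotted line at a signal of 16. Parp12 lay between 381 and 714 in Trim24-/- livers at 5 weeks, above every other group, while Zc3hav1l had signals of 1.12 to 6.58 in 5-week WT livers and 15.3 to 29.9 in 14-week WT livers. Between the 5-week and 14-week groups, age, sex and array set cannot be told apart.

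The 6 genes diverged in Trim24-/- animal 37. Relative to the WT mean at 5 weeks, its Parp12 was higher by 0.94 and its Zc3hav1l by 0.74 in log2(signal + 16), whereas Parp9 was at 0.04, Dtx3l at -0.02, Parp14 at 0.24 and Zc3hav1 at -0.30. The median of 36 other interferon-stimulated genes stood at 0.98 in that animal, equal to the 0.98 of animal 6, in which Parp12 was at 0.70, Parp9 at 0.69, Parp14 at 1.03 and Dtx3l at 0.41. Animals 1 and 8 had medians of 2.14 and 1.58, and Parp12 at 1.58 and 1.32.
Without animal 37, limma called 4 genes higher in Trim24-/- than in WT livers: Parp12 (1.2, adjusted p = 0.0245), Parp14 (1.29, 0.00282), Dtx3l (0.62, 0.0317) and Parp9 (0.96, 0.0332), while Zc3hav1l was then not called. Animal 37 held the lowest Parp9, Parp14 and Dtx3l signals of its group, so leaving it out raises these differences by construction. With any other 1 array left out, none of Parp9, Parp14 and Dtx3l was called (limma adjusted p up to 0.469, 0.206 and 0.523). The reason for the low values of Parp9, Parp14 and Dtx3l in animal 37 was not tested.

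**Figure D2:**
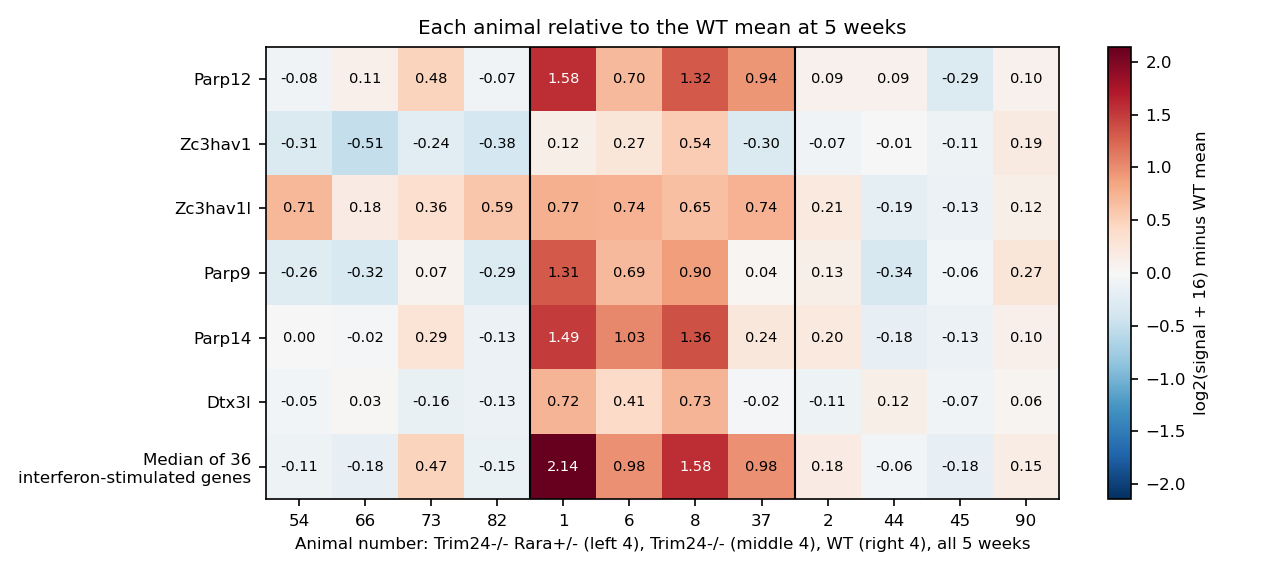
Log2(signal + 16) minus the WT mean at 5 weeks for each gene (rows) and each 5-week animal (columns: Trim24-/- Rara+/-, Trim24-/-, WT), with the median of 36 interferon-stimulated genes outside the 6 in the last row. Trim24-/- animal 37 combined a median of 0.98 with 0.04 for Parp9 and -0.02 for Dtx3l.

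Deletion of 1 Rara allele on top of Trim24 loss was examined next, by setting Trim24-/- Rara+/- livers against both other 5-week groups. These comparisons share arrays with each other and with the one above. Parp12, Parp9, Parp14 and Dtx3l lay at about WT level in Trim24-/- Rara+/- livers, with intervals of the difference from WT that include 0, and below most Trim24-/- livers. Relative to Trim24-/- livers, all 6 differences were negative (median -0.74, against -0.01 over all genes), 5 had an unadjusted p under 0.05 where 11.5% of all genes did, and limma called 0, against 0.143% of all genes called. Relative to WT, 3 of 6 were positive (median -0.02), 2 had an unadjusted p under 0.05 where 7.44% of all genes did, and 0 were called, against 0.055% of all genes.

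Parp12 gave 215, 247, 323 and 216 in Trim24-/- Rara+/- livers, all below the Trim24-/- minimum of 381. It was the only one of the 6 genes whose brightest probe set did not overlap between these groups, as for 5.13% of all genes in the downward direction. The difference was -1.03 ± 0.19 in log2(signal + 16) (SE, 95% interval -1.44 to -0.62, limma adjusted p = 0.0591), and it passed the test without Trim24-/- animal 6 (adjusted p = 0.0307), Trim24-/- animal 37 (0.0435) or Trim24-/- Rara+/- animal 73 (0.0386), as well as without WT animal 90 and Trim24-/- animal 6 (0.0385). With 1 array left out it stayed uncalled in 9 of 12 fits (limma adjusted p up to 0.199). Against WT livers Parp12 differed by 0.11 ± 0.19 (95% interval -0.30 to 0.52), an interval that does not reach the 1.14 of the Trim24-/- livers.

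Parp14 gave 124, 122, 155 and 112 in Trim24-/- Rara+/- livers, a difference of -0.995 ± 0.23 from Trim24-/- livers (SE, limma adjusted p = 0.0993) and of 0.03 ± 0.23 from WT livers (95% interval -0.45 to 0.52). Parp9 gave 396, 379, 502 and 386, a difference of -0.93 ± 0.23 from Trim24-/- livers (limma adjusted p = 0.113) and of -0.20 ± 0.23 from WT livers (-0.69 to 0.29). Dtx3l gave 350.1, 371, 323 and 331, a difference of -0.54 ± 0.15 from Trim24-/- livers (limma adjusted p = 0.175) and of -0.08 ± 0.15 from WT livers (-0.41 to 0.25). For all 3 chromosome 16 genes the Trim24-/- Rara+/- and Trim24-/- groups touched through Trim24-/- animal 37. Without that animal limma called 5 of the 6 genes lower in Trim24-/- Rara+/- livers: Parp12 (-1.09, adjusted p = 0.0435), Parp14 (-1.26, 0.00752), Parp9 (-1.17, 0.0212), Dtx3l (-0.70, 0.0282) and Zc3hav1 (-0.67, 0.0431). Animal 37 was the lowest of its group for the last 4, so these differences grow by construction. With any other 1 array left out, none of those 4 was called (limma adjusted p up to 0.254, 0.290, 0.397 and 0.420).

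The ZAP genes had differences from WT livers of opposite sign. Zc3hav1 gave 140.5, 120.4, 148 and 133 in Trim24-/- Rara+/- livers, all below the WT minimum of 164, a difference of -0.36 ± 0.15 from WT livers (SE, 95% interval -0.69 to -0.02) that did not pass the test (limma adjusted p = 0.643). Groups ordered in this downward way in 2.63% of all genes. The second Zc3hav1 probe set, 1428378_at, gave 21.7 to 41.8 in Trim24-/- Rara+/- and 28.0 to 53.9 in WT livers. These overlapped, with a difference of -0.23 (limma adjusted p = 0.896 over all probe sets). From Trim24-/- livers the brightest Zc3hav1 probe set differed by -0.51 ± 0.15 (limma adjusted p = 0.195), and 1428378_at by -0.56. Zc3hav1l gave 15.97, 6.16, 9.14 and 13.5 in Trim24-/- Rara+/- livers, between the other 5-week groups, with a difference of 0.46 ± 0.13 from WT livers (limma adjusted p = 0.339, unadjusted p = 0.00382) and of -0.27 ± 0.13 from Trim24-/- livers (adjusted p = 0.469).

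**Figure D3:**
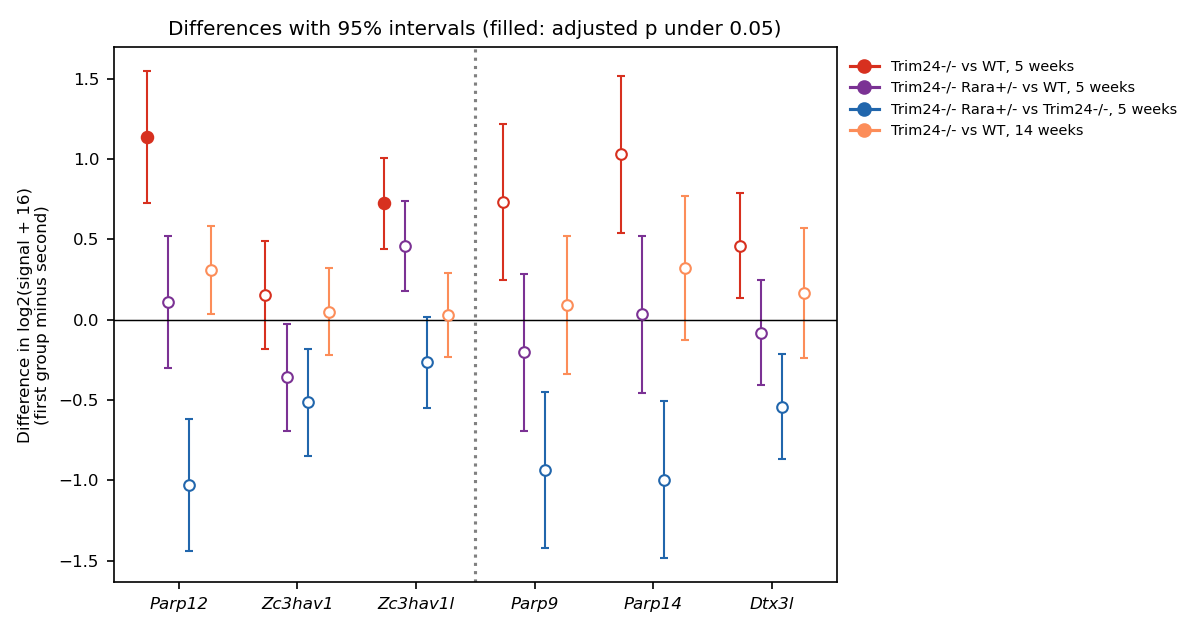
Difference in log2(signal + 16) for each gene (horizontal axis, chromosome 6 genes left of the dotted line, chromosome 16 genes right of it) in 4 comparisons, first-named group minus second, with 95% intervals; filled points have an adjusted p under 0.05. Parp12 at 1.14 and Zc3hav1l at 0.72 were the only filled points, both in Trim24-/- against WT at 5 weeks.

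At 14 weeks the question was whether the differences between Trim24-/- and WT livers were present in older mice. By the brightest probe sets all 6 differences were positive, from 0.03 to 0.32 with a median of 0.13, against 0.00 over all genes. None was called by limma, against 0.242% of all genes called, and 1 of the 6, Parp12, had an unadjusted p under 0.05, where 8.23% of all genes did. No gene of the 6 separated the groups upward, against 1.07% of all genes.

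Parp12 gave 253, 318, 308, 294 and 302 in Trim24-/- livers, against 201, 197, 279, 229 and 279 in WT livers. The ranges overlapped only through the Trim24-/- animal at 253, and the difference was 0.31 ± 0.13 (SE, limma adjusted p = 0.548, unadjusted p = 0.0309). Parp14 gave 139, 165, 185, 168 and 249 in Trim24-/- livers, against 111, 108, 111, 222 and 174 in WT livers, a difference of 0.32 ± 0.21 (limma adjusted p = 0.744). The WT animals at 222 and 174 were also the highest WT animals for Parp9 and Dtx3l.
Parp9 gave 338, 459, 481, 392 and 541 in Trim24-/- livers, against 336, 309, 350.0, 493 and 627 in WT livers. Dtx3l gave 317, 422, 341, 324 and 462 in Trim24-/- livers, against 232, 266, 323, 397 and 464.5 in WT livers. Both overlapped widely, with differences of 0.09 ± 0.20 and 0.17 ± 0.19 (SE). Zc3hav1 gave 197 to 256 in Trim24-/- and 166 to 244 in WT livers, and Zc3hav1l 18.4 to 25.5 in Trim24-/- and 15.3 to 29.9 in WT livers, with differences of 0.05 ± 0.12 and 0.03 ± 0.12. The second Zc3hav1 probe set, 1428378_at, gave 60.1 to 120.9 in Trim24-/- and 8.79 to 87.6 in WT livers, an overlapping difference of 0.58 ± 0.34 (SE, limma adjusted p = 0.785 over all probe sets).

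The change in the difference between ages was tested directly as an interaction over all 22 arrays. By the brightest probe sets it was negative for all 6 genes (median -0.67, against 0.00 over all genes): -0.83 ± 0.23 for Parp12 (SE, limma adjusted p = 0.374), -0.71 ± 0.32 for Parp14 (0.769), -0.69 ± 0.18 for Zc3hav1l (0.337), -0.64 ± 0.31 for Parp9 (0.783), -0.29 ± 0.25 for Dtx3l (0.910) and -0.11 ± 0.20 for Zc3hav1 (0.970), whose probe set 1428378_at gave 0.26 ± 0.42. The Zc3hav1l value follows the added constant, from -0.24 with 64 units to -2.01 with 1 unit. None of these passed the test, against 0.033% of all genes called. Unadjusted, 3 of the 6 had a p under 0.05, where 6.39% of all genes did.

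Ordered by mean over the 5 groups, Parp12 was highest in Trim24-/- livers at 5 weeks (535), without overlap with the next group, Trim24-/- at 14 weeks (295), and the remaining groups, between 229 and 250.4, overlapped their neighbours. Parp9, Parp14 and Dtx3l were also highest in Trim24-/- livers at 5 weeks (845, 285 and 518 by the brighter probe set), but neighbouring groups overlapped throughout. Zc3hav1, by its brightest probe set, was lowest in Trim24-/- Rara+/- livers (136), without overlap with the next group, WT at 5 weeks (179), and its other neighbours overlapped. By 1428378_at these lowest groups, with means of 32.0 and 40.5, overlapped. Zc3hav1l was lowest in WT livers at 5 weeks (3.71) and highest in Trim24-/- livers at 14 weeks (21.7), with overlap between all neighbours.

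The genes around Trim24 were read beside its 3 neighbours among the 6. Besides these, 37 other genes were measured within 20 measured genes of Trim24 on either side, 12 of them between Trim24 and Parp12. None of the 37 was called in any of the 5 tests (limma), with medians between -0.02 and 0.03. In Trim24-/- against WT livers at 5 weeks 6 of the 37 had an unadjusted p under 0.05 (limma), where 10.8% of all genes did. It was 7 in Trim24-/- Rara+/- against Trim24-/- livers (11.5% of all genes) and 3 against WT (7.44%). At 14 weeks it was 3 (8.23%), and 4 in the interaction (6.39%). Of the 37, 15 had a mean signal below 16 in WT and 12 in each mutant group at 5 weeks, so the added constant limits their differences. In Trim24-/- against WT livers at 5 weeks the 12 genes between ranged from -0.44 to 0.64, so Parp12 (1.14) lay above all of them and Zc3hav1 (0.16) lay within. The place of Zc3hav1l (0.72) among them depends on the added constant, since its WT signals were all below 16. In Trim24-/- Rara+/- against WT livers, where Trim24 is disrupted too, the same 12 ranged from -0.32 to 0.53, with Parp12 at 0.11. The part of linked alleles in any of these values was not tested.

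**Figure D4:**
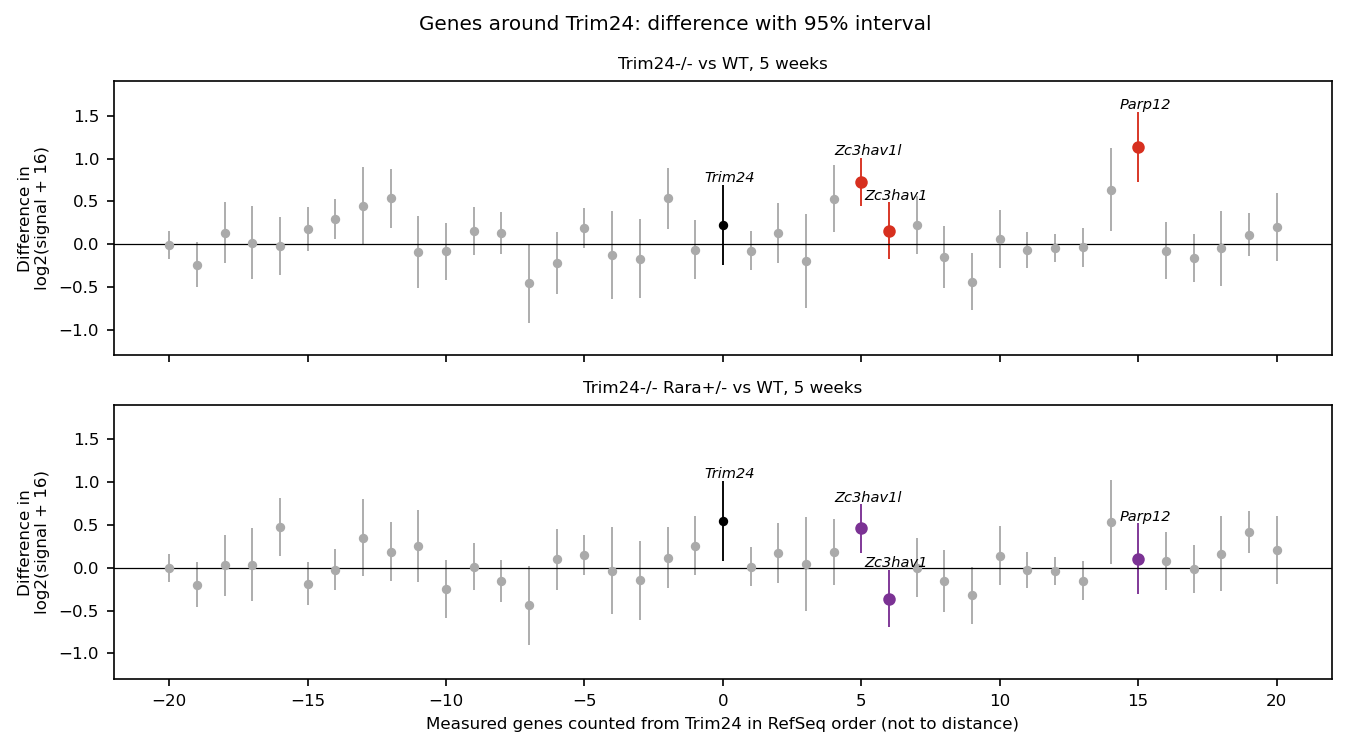
Difference in log2(signal + 16) with its 95% interval for Trim24 (black), the 3 chromosome 6 genes of interest (coloured) and 37 other measured genes (grey), in RefSeq order from Trim24, for Trim24-/- against WT (top) and Trim24-/- Rara+/- against WT (bottom) at 5 weeks. Parp12 stood at 1.14 in the top panel and 0.11 in the bottom one.

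Interferon-stimulated genes outside the 6, a list chosen with results of these samples known, were read beside them. Of 36 measured, 18 rose in Trim24-/- against WT livers at 5 weeks and 0 fell, with a median of 1.41, and all 36 differences were positive. Psmb9, an immunoproteasome subunit, differed by 1.39 ± 0.17 (limma adjusted p = 0.00341) and Oas1a, an oligoadenylate synthetase, by 2.07 ± 0.30 (0.0142). Psmb9 was called in 23 of 23 alternatives and Oas1a in 21, all but those without WT animal 45 or Trim24-/- animal 8. The count was 1 without WT animal 45 or Trim24-/- animal 8, 5 without WT animal 44 or Trim24-/- animal 1, and 28 without Trim24-/- animal 37, and 11 when any of Trim24-/- Rara+/- animals 54, 66 and 82, which share the variance estimate, was left out, and 15 without both WT animal 90 and Trim24-/- animal 6. In Trim24-/- Rara+/- against Trim24-/- livers 6 fell, with a median of -1.47, among them the GTPase gene Igtp (-1.73 ± 0.21, limma adjusted p = 0.0193), called in 18 of 23 alternatives, and Oas3, called in 13 of 22 (limma adjusted p = 0.0275). Both calls held without WT animal 90 and Trim24-/- animal 6. Oas3 was dim, with signals of 3.02 to 6.85 in Trim24-/- Rara+/- and 15.1 to 40.4 in Trim24-/- livers, and the size of its difference follows the added constant, from -0.41 with 64 units to -2.29 with 1 unit.
That count ranged from 0 (without Trim24-/- animal 8, or without Trim24-/- Rara+/- animal 54, 66 or 82) to 22 (without Trim24-/- animal 37), and was 1 without Trim24-/- animal 1, 11 without Trim24-/- animal 6 (with or without WT animal 90) and 12 without Trim24-/- Rara+/- animal 73. Against WT, 0 were called in Trim24-/- Rara+/- livers (limma; 1 at an unadjusted p under 0.05). The median there was 0.07, but -0.098 without Trim24-/- Rara+/- animal 73 and -0.018 without WT animal 45. At 14 weeks 1 of the 36 passed, Usp18, the ISG15 protease that restrains interferon receptor signalling (1.17 ± 0.21, limma adjusted p = 0.0469), and the median was 0.35. Of the 36 differences, 34 were positive and 19 had an unadjusted p under 0.05 (limma), where 8.23% of all genes did. For 8 of the 36 the groups separated upward without overlap, against 1.07% of all genes. The Usp18 call was lost when any 1 of 9 of the 10 arrays at 14 weeks was left out.

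Among 13 measured genes of interferon receptors and signalling, Irf7, a transcription factor that amplifies interferon production (1.96 ± 0.37, limma adjusted p = 0.0387), and Usp18 (2.06 ± 0.41, 0.0452) rose in Trim24-/- livers at 5 weeks and 0 fell. Both genes are also in the interferon-stimulated list and among its 18 calls. These calls held in 10 and 7 of 23 alternatives, and both were lost without WT animal 2, 44, 45 or 90, Trim24-/- animal 1 or 8, or Trim24-/- Rara+/- animal 54, 66 or 82, and that of Usp18 also without Trim24-/- animal 6, alone or with WT animal 90 (2.14, limma adjusted p = 0.0992). The Irf7 call held without both of these animals. Of 11 other PARP-family genes measured, 0 were called in any of the 5 tests (limma), 3 had an unadjusted p under 0.05 in Trim24-/- against WT livers at 5 weeks, and the median there was 0.08. ZAP co-factors and RNA decay partners (11 measured) had 0 calls, 2 unadjusted p under 0.05 and a median of 0.22 in that comparison. Ddx58 among them is also in the interferon-stimulated list. ADP-ribose hydrolases and readers (9 measured) had 0 calls, 2 unadjusted p under 0.05 and a median of -0.13.

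Whole liver was measured, so fewer or more cells of a type and a change of RNA per cell cannot be told apart. Of 13 macrophage and Kupffer cell markers, 1 passed the test in Trim24-/- against WT livers at 5 weeks: Mpeg1, a macrophage pore-forming protein (1.69 ± 0.30, limma adjusted p = 0.0275). It no longer passed when WT animal 2, 44 or 45 or Trim24-/- animal 1 or 8 was left out, and passed without both WT animal 90 and Trim24-/- animal 6. The differences of 12 of the 13 were positive (median 0.37), and 4 had an unadjusted p under 0.05 (limma), where 10.8% of all genes did. The summed signal of the 13 ranged from 6432 to 12760 in Trim24-/- and from 4648 to 9345 in WT livers. The same 13 markers had a median of 0.18 and a summed signal of 6257 to 10231 in Trim24-/- Rara+/- livers, and a median of 0.44 at 14 weeks with summed signals of 4954 to 9234 in Trim24-/- and 4196 to 5579 in WT livers. All 13 differences at 14 weeks were positive, and 9 had an unadjusted p under 0.05 (limma), where 8.23% of all genes did. In Trim24-/- Rara+/- against WT livers 2 of the 13 did, where 7.44% of all genes did. No macrophage marker had a mean signal below 16.
Of 10 T and NK cell markers, 5 had a mean signal below 16 in Trim24-/- and 10 in WT livers at 5 weeks, with summed signals of 114 to 243 and 84.4 to 112, and 0 were called (limma, 2 at an unadjusted p under 0.05). B and plasmacytoid cell markers (7 measured, median 0.18) and endothelial markers (7 measured, median -0.11) also had 0 calls, with 2 and 0 at an unadjusted p under 0.05 (limma). The B and plasmacytoid list shares Bst2 with the interferon-stimulated list. Of its 7 measured markers, 4 had a mean signal below 16 in WT and 3 in Trim24-/- livers at 5 weeks. The part of these cell types in the values of the 6 genes was not tested.

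Likeness of pattern was described by Pearson's r over the 12 arrays at 5 weeks among 8333 genes with a mean log2(signal + 16) of at least 6. The arrays share the group differences, and r within groups is the same measure after each group's mean is removed. Parp12 was most like Shisa5 (r = 0.991, 0.957 within groups), Gbp6, a guanylate-binding protein (0.988, 0.959), and Lgals3bp, a secreted glycoprotein (0.978, 0.966), with 0.807, 0.770 and 0.592 over the 10 arrays at 14 weeks. Parp9 was most like Eif2ak2, the double-stranded-RNA-activated kinase (0.987, 0.972 within groups), and the RNA sensors Ddx58 (0.976) and Ifih1 (0.966), but r at 14 weeks was 0.406, -0.0523 and 0.115.
Parp14 was most like Ddx58 (0.973), Rnf213 (0.973) and the RNA editing enzyme Adar (0.971), with 0.0848, 0.640 and 0.567 at 14 weeks. Dtx3l was most like Acvr1b (0.947), Ifit1, which binds foreign RNA ends (0.929), and Med28 (0.918), with 0.338, 0.851 and 0.360 at 14 weeks. Zc3hav1 was most like Neo1 (0.932), Mettl2 (0.920) and Slc35d2 (0.910), with 0.102, 0.00909 and 0.272 at 14 weeks. Zc3hav1l was most like 1110059G10Rik (0.918, but 0.564 within groups), Myh10 (0.871, 0.396) and Rgp1 (0.870, 0.650), with -0.163, 0.0957 and 0.306 at 14 weeks.

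Among the 6 genes, Parp9 and Parp14 had the highest r at 5 weeks (0.960, 0.946 within groups), and 0.825 at 14 weeks. Parp9 and Dtx3l, whose products form a complex, correlated at 0.867 at 5 weeks, 0.654 within groups and 0.888 at 14 weeks, the highest there. Parp12 correlated with Parp14 at 0.905 and with Parp9 at 0.850, but at 0.639 and 0.628 within groups and 0.537 and 0.570 at 14 weeks. Zc3hav1 correlated with its neighbour Zc3hav1l at 0.118, and at -0.147 at 14 weeks. With Parp9, Parp14 and Dtx3l Zc3hav1 correlated at 0.760, 0.712 and 0.768, at 0.629, 0.737 and 0.700 within groups, and at 0.209, 0.200 and 0.387 at 14 weeks.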

How the data were processed

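Liver RNA of 22 mice (100 ng each, 2 rounds of cRNA amplification, biotin label, per the labels' protocols) was measured on Affymetrix arrays. The authors deposited 1 signal intensity per probe set and array, on a linear scale and scaled to a common trimmed mean; no label or header names the software, and the intensity table carries no detection calls. Groups and animal numbers were taken from the sample titles, and nothing states whether extracts were processed in batches. The array number limits the precision.

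Of 45101 probe sets, 64 controls were left out. Genes were named from the platform annotation (34958 probe sets with 1 symbol, 932 with several, which were not used, the rest with none), and 18032 of 18193 genes matched RefSeq (GRCm38.p6) by Entrez number. A gene was represented by its brightest probe set. Log2(signal + 16) was fitted with limma 3.58.1 in R 4.3.3 (lmFit, eBayes, two-sided), with Benjamini-Hochberg adjustment over all genes, or over all 45037 probe sets in a second fit; called means an adjusted p under 0.05. A single model of 12 arrays gave all 5-week contrasts, 10 arrays gave the 14-week contrast, and the interaction used all 22. Differences are first-named group minus second. The fit was tested on simulated data. Alternatives were quantile or median scaling, a filter on dim features, pseudocounts of 1 and 64, other sets of arrays, a variance trend, other summaries of probe sets and leaving out each array.

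The genes and the gene lists were chosen with earlier results of these data known. Named genes were the 6 genes, Trim24, up to 2 called genes per list and comparison with the smallest adjusted p, neighbours of Trim24 called in any comparison (none were), and the 3 genes most like each of the 6.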

Additional observations from a re-analysis of the deposited data

Results flagged for a closer look

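Each probe set of the 6 genes was examined in each group for an animal set apart from the rest by Dixon's test. Of 50 such groups, 4 held one, where chance gives about 1 in 20. The lowest Parp12 signal in WT livers at 5 weeks was 184, in animal 45, with the other WT animals at 244, 244 and 245. Among Trim24-/- Rara+/- livers the highest Parp9 signal was 502, in animal 73, whose median of 36 interferon-stimulated genes was 0.47 above the WT mean on the log2 scale, against -0.18 to -0.11 in the other animals of its group. The other results came from dim probe sets: the highest signal of Zc3hav1 probe set 1431909_at in WT livers at 14 weeks was 12.3, and the lowest of Parp14 probe set 1432548_at in Trim24-/- livers at 14 weeks was 2.88.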

How the results depend on the processing

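No paired analysis was possible because the groups share no animal numbers. Of the 6 genes, 2 were called in Trim24-/- against WT livers at 5 weeks; the count was 0 with a pseudocount of 1 or with the compared arrays alone, 1 without both WT animal 90 and Trim24-/- animal 6, and 0 to 4 with 1 array left out. In Trim24-/- Rara+/- against Trim24-/- livers it was 0, but 1 with the dimmer genes filtered out, with all 22 arrays in 1 fit, with a variance trend or without those 2 animals, and 0 to 5 with 1 array left out. For probe sets the first count was 2; it was 1 with the dim filter, with a pseudocount of 64, with a trend or without those 2 animals, 0 with a pseudocount of 1 or the compared arrays alone, and 0 to 2 with 1 array left out (0 without WT animal 2, 44, 45 or 90, Trim24-/- animal 1 or 8, or Trim24-/- Rara+/- animal 54, 66 or 82). The second probe set count was 0, 1 with the dim filter, with 22 arrays or with a trend, and 0 to 3 with 1 array left out. The counts for Trim24-/- Rara+/- against WT, for 14 weeks and for the interaction were 0 under every alternative run. Parp12 in Trim24-/- against WT livers at 5 weeks stayed positive in 23 of 23 alternatives (0.99 to 1.31) and was called in 17, Zc3hav1l in 22 of 22 and called in 13. Parp14 stayed positive in 23 of 23 and was called in 3. These were all 22 arrays in 1 fit (limma adjusted p = 0.0383), the dim filter (0.0436) and the fit without Trim24-/- animal 37 (0.00282). Parp9 and Dtx3l were each called in 1 of 23, and Zc3hav1 in 0. Of 36 interferon-stimulated genes, the 18 calls in Trim24-/- against WT livers at 5 weeks became 3 with the compared arrays alone, 5 with a pseudocount of 1, 11 with every probe set tested and 29 with 22 arrays. The 6 calls in Trim24-/- Rara+/- against Trim24-/- livers became 0 with a pseudocount of 1, 1 with the compared arrays alone, 13 with a trend, 17 with the dim filter and 28 with 22 arrays, and 11 without those 2 animals. The 1 call at 14 weeks ranged from 0 to 4. Zc3hav1l has no value under the dim filter.

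Signs turned only for uncalled values. With the mean of all probe sets, Parp14 in Trim24-/- Rara+/- against WT livers was -0.14 and the Zc3hav1 interaction was 0.048, and without WT animal 90 and Trim24-/- animal 6, probe set 1431909_at of Zc3hav1 was at 0.0068 against Trim24-/- livers and 0.083 in the interaction. With 1 array left out, the ranges of the 6 genes that crossed 0 were -0.013 to 0.17 for Parp12, -0.050 to 0.10 for Parp14 and -0.0048 to 0.060 for Zc3hav1 probe set 1431909_at in Trim24-/- Rara+/- against WT livers, -0.14 to 0.0068 for 1431909_at against Trim24-/- livers, -0.0024 to 0.24 for Parp9, -0.021 to 0.11 for Zc3hav1 and -0.027 to 0.11 for Zc3hav1l at 14 weeks, and, in the interaction, -0.26 to 0.021 for Zc3hav1, -0.072 to 0.44 for 1428378_at, -0.084 to 0.11 for 1431909_at, -0.28 to 0.12 for Parp14 probe set 1432548_at and -0.21 to 0.040 for Dtx3l probe set 1439825_at. The causes were not tested.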
